A study of Homo sapiens with 6 samples.

Results

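The 44 genes described here encode the machinery that a cell builds to pass from G1 into S phase and to copy its DNA. They were measured on 6 Illumina HumanHT-12 version 4 arrays of the human bladder cancer cell line RT4 and cells derived from it. Members were taken by gene symbol. A probe was kept when its detection p was under 0.01 on at least 1 of the 6 arrays, and 62 of 68 member probes met that. Every one of the 44 members kept a probe, among 16441 genes with a detected probe on the arrays. The member nearest the limit was GINS1, with a lowest detection p of 0.00779, and the nearest probes left out were further probes of CDCA7 and RFC3, each at 0.01039. The rule that kept probes used gene symbols and detection only, but the members were chosen with earlier results of these data known.

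The study followed RT4 cells through the blebbishield emergency program, in which cells that have undergone apoptosis leave bodies, called blebbishields, that can form transformed spheres. It also compared lines that differ in their ability to form tumors. Blebbishields came from RT4P cells kept for 24 h in 1 uM cisplatin, a DNA crosslinking drug, with 20 mM lithium chloride, and the sample mixed bodies that form spheres with bodies that do not. Spheres had the same treatment, then 4 h of transformation, and were isolated as pure spheres. RT4P-BSE2 was a line of live cells taken through the program 2 times in series. RT4v6 was a line of live cells passaged 6 times in mice, which the submitters did to enrich cancer stem cells. PBSHMS was a live line made by fusing RT4 blebbishields with human blood mononuclear cells. RT4P live cells, the array set against the others, and the other 3 live lines were untreated, and all cells grew in the same medium. Each group had 1 array, so no difference below has a replicate check, no p-value is given, and values describe these arrays.

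As background, DNA replication is prepared in G1, when CDC6 and CDT1 load the MCM2-7 ring onto origins, a step called licensing. Cyclin E with its kinase, and the GINS complex with MCM10, then turn the ring into a working helicase. The polymerases, the sliding clamp PCNA and its loader, and the enzymes that make deoxynucleotides follow. Most of these genes are known targets of E2F transcription factors, which the retinoblastoma protein holds back in quiescent cells and cyclin-dependent kinases release. Their summed activity is widely used as a readout of proliferation in tumor cells.

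On the arrays, between 14749 probes (blebbishields) and 17593 probes (spheres) of 47322 were detected, with 16733 on the RT4P array. The mean signal was 263.2 in blebbishields, between 349.5 and 389.2 on the other 4 arrays of derived cells, and 382.2 in RT4P. Levels below are log2 intensities after background correction and quantile normalization over the 6 arrays. Of 15 urothelial and epithelial markers, 15 were detected on 4 arrays and 14 on the RT4v6 and PBSHMS arrays, where KRT13 was not. Of 18 leukocyte markers, 4 were detected in blebbishields, 6 in spheres, 6 in RT4P-BSE2, 4 in RT4v6, 2 in PBSHMS (ITGAM and LCP1) and 3 in RT4P, ITGAM and LCP1 among them. Their summed signal ran from 1171.0 in RT4v6 to 4017.3 in PBSHMS over the 5 derived arrays and was 4187.3 in RT4P. In blebbishields against RT4P these markers went both ways. FCGR3A, a receptor of leukocytes for antibodies, was at least 5.37-fold higher, CD14 at least 1.67-fold and CD52 at least 1.65-fold higher. LCP1 was 1.96-fold lower, ITGAM was at least 1.73-fold lower, and CD79A was a bound of 0. The part of these genes in the results was not tested. PTPRC, CD3D and MS4A1, which help to define blood lymphocytes and leukocytes, were not detected on any array. The lymphocyte marker CD2 was detected in spheres (5.23), RT4P-BSE2 (5.21) and RT4v6 (5.53). CD79A, another, was detected in spheres (5.15), RT4P-BSE2 (5.45) and RT4P (5.12). In bulk RNA, fewer cells in S phase and less RNA per cell cannot be told apart, which applies to every difference below.

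Promoters were examined because the members are known to share E2F control and because many moved one way in RT4P-BSE2, described next. RefSeq (GRCh38.p14) gave a promoter for 37 of 44 members, as 300 bases from 250 before to 50 after the start. The E2F motif GGCGGGAA, searched on both strands, stood in 12 of these genes (32.4%), against 3.79% of 27305 genes. The related motif GGCGCGAA stood in 4 (10.8%), against 1.19% of all genes. Either was present in 14 (37.8%), against 4.92%, and LIG1 and MCM3 held both. The CCAAT box, a common promoter element, stood in 20 members (54.1%), against 39.7% of all genes.
The stretches below run from 185 bases before to 15 bases after the start, with E2F matches in capitals on either strand. The first 5 are the members with a match among those at least 1.5-fold lower in RT4P-BSE2. MCM5 and CCNE2, also at least 1.5-fold lower in RT4P-BSE2, had no promoter to search. CDCA7, with the largest difference there, and TYMS, with the largest difference in blebbishields, have no match.
CDT1 at chr16:88803604-88803803, plus strand: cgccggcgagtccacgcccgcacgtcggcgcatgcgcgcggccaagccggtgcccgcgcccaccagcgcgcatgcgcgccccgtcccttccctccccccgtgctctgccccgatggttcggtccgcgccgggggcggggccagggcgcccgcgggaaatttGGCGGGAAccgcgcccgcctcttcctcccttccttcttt
GINS2 at chr16:85688940-85689139, minus strand: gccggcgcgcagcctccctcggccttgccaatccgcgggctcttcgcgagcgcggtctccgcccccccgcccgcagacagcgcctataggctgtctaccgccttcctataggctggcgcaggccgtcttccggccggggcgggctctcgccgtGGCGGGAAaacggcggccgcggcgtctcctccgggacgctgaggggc
MCM6 at chr2:135876429-135876628, minus strand: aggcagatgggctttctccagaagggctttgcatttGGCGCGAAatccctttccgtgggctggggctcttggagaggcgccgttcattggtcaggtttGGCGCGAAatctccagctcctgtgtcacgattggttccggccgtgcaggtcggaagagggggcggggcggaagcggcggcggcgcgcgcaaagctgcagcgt
MCM7 at chr7:100101383-100101582, minus strand: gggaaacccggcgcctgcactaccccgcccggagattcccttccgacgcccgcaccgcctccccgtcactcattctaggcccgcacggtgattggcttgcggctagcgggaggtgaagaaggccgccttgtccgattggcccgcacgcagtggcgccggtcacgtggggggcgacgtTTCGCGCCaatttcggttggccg
RFC2 at chr7:74254385-74254584, minus strand: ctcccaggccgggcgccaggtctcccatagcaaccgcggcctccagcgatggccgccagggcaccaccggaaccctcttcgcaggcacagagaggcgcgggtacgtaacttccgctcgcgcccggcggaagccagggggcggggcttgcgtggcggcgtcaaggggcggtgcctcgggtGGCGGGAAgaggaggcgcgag
CDCA7 at chr2:173354687-173354886, plus strand: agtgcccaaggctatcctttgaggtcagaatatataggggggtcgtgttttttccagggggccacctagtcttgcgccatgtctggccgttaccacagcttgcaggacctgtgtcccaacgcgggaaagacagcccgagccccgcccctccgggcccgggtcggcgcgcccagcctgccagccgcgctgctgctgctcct
TYMS at chr18:657468-657667, plus strand: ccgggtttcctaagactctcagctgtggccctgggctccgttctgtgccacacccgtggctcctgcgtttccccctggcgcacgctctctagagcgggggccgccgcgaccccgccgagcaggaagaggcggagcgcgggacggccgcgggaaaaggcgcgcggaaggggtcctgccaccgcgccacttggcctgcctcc
The match in CDT1 began 24 bases before the start, that in GINS2 32 bases before it, and that in RFC2 6 bases before it. MCM6 held GGCGCGAA 2 times, 149 and 87 bases before the start. In MCM7, which has 3 promoters in the table, 1 held the motif, on the opposite strand 8 bases before the start. A match describes letters and is not a measured binding site, and no match says only that these letters are not in the window.

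RT4P-BSE2 cells, which had come through the blebbishield program 2 times, had lower levels of replication genes than RT4P live cells. Of 43 members measured, 39 were below 0 in log2 difference, and 51.1% of all genes were. The median difference was -0.253 for the members, with all genes at -0.008. At 1.5-fold, 10 members were lower and 0 higher, while 2.67% of 14403 genes were lower and 3.99% higher. The count of 10 fell to 5 without background correction and to 5 with the authors' processed values. No member reached 2-fold, the threshold used for a call, where 0.271% of genes were 2-fold lower and 1.3% higher. The 10 members were MCM5, MCM6, MCM7, GINS2, CDT1, MCM10, CCNE2, E2F2, RFC2 and CDCA7. After quantile normalization all 10 had their lowest level of the 6 arrays in RT4P-BSE2. They were picked for a low value on that array, which favors this rank. In the non-normalized signal the dimmer blebbishield array was lower still for MCM6, MCM7, GINS2, CCNE2, E2F2 and CDCA7. For MCM6 that signal was 975.8 in blebbishields and 1362.1 in RT4P-BSE2.

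The helicase held 4 of the 10. MCM5, a subunit of the ring, had log2 levels of 7.57 in RT4P-BSE2, 8.54 in blebbishields, 8.91 in spheres, 8.31 in RT4v6, 8.13 in PBSHMS and 8.36 in RT4P. The RT4P-BSE2 value was thus 1.73-fold lower than in RT4P, and the other 5 arrays lay above it. MCM6 had 10.25 in RT4P-BSE2, 10.47 in blebbishields, 10.60 in spheres, 10.64 in RT4v6, 10.46 in PBSHMS and 10.95 in RT4P, or 1.63-fold lower. MCM7 had 11.05 in RT4P-BSE2, 11.53 in blebbishields, 11.61 in spheres, 11.52 in RT4v6, 11.24 in PBSHMS and 11.71 in RT4P, or 1.58-fold lower, and its 2 other probes differed by -0.89 and -0.261 on the log2 scale. For both genes RT4P stood highest and RT4P-BSE2 lowest in the quantile normalized values. GINS2, a subunit of the complex that joins the ring to make the active helicase, had 8.82 in RT4P-BSE2, 9.35 in blebbishields, 9.29 in spheres, 9.28 in RT4v6, 9.21 in PBSHMS and 9.54 in RT4P, or 1.64-fold lower. The remaining ring subunits lay in the same direction without passing 1.5-fold. MCM3 had 11.35 in RT4P-BSE2, 11.45 in blebbishields, 11.44 in spheres, 11.65 in RT4v6, 11.33 in PBSHMS and 11.61 in RT4P, or 1.19-fold lower, with its highest level in RT4v6 and its lowest in PBSHMS. MCM2 was 1.33-fold lower and MCM4 1.36-fold lower. GINS3 was 1.17-fold lower. GINS1 was detected in RT4P alone, so its difference is a bound of at least 1.06-fold lower. All 9 helicase genes were thus below 0, with a median of -0.441.

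The 3 licensing and activation factors had a median of -0.620. CDT1, the licensing factor that is destroyed once S phase starts, had 7.84 in RT4P-BSE2, 9.17 in blebbishields, 8.67 in spheres, 7.92 in RT4v6, 8.36 in PBSHMS and 8.56 in RT4P, a level 1.64-fold lower in RT4P-BSE2 than in RT4P. MCM10, which helps to start the helicase, had 6.93 in RT4P-BSE2, 7.95 in blebbishields, 8.01 in spheres, 7.57 in RT4v6, 7.28 in PBSHMS and 7.55 in RT4P, or 1.54-fold lower, and its other probe differed by -0.434. RT4v6 and RT4P lay close together for MCM10, and RT4P-BSE2 lay under both. CDC6, the CDT1 partner, was detected in spheres, RT4v6 and RT4P only, close to the detection limit.

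Among the regulators of S phase entry, cyclin E2 and E2F2 were lower. CCNE2, which encodes cyclin E2, had 8.05 in RT4P-BSE2, 8.31 in blebbishields, 9.09 in spheres, 8.35 in RT4v6, 8.51 in PBSHMS and 8.73 in RT4P, or 1.60-fold lower. E2F2, an activating E2F, had 6.54 in RT4P-BSE2, 7.19 in blebbishields, 7.54 in spheres, 6.93 in RT4v6, 6.71 in PBSHMS and 7.24 in RT4P, or 1.63-fold lower. CCNE1, the paralog of CCNE2, had 7.97 in RT4P-BSE2, 8.29 in blebbishields, 8.34 in spheres, 8.05 in RT4v6, 7.72 in PBSHMS and 7.87 in RT4P. It was 1.07-fold higher, although 1 of its 3 other probes differed by -0.532. E2F1, the best known activating E2F, was 1.22-fold lower and the repressor E2F8 1.02-fold lower.

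At the fork, none of the 7 polymerase and primase genes passed 1.5-fold, and their median was -0.248. The lowest was POLA1, the catalytic subunit of the polymerase that starts each strand, which had 7.81 in RT4P-BSE2, 8.21 in blebbishields, 7.95 in spheres, 8.24 in RT4v6, 7.90 in PBSHMS and 8.25 in RT4P, or 1.35-fold lower. POLA2, its partner subunit, was 1.29-fold lower and POLE, the leading strand polymerase, 1.05-fold lower. POLD1, POLD3, POLE2 and PRIM1 lay between -0.27 and -0.07 on the log2 scale. PCNA, the sliding clamp, had 10.60 in RT4P-BSE2, 11.26 in blebbishields, 11.54 in spheres, 10.76 in RT4v6, 10.61 in PBSHMS and 10.76 in RT4P, or 1.12-fold lower. RFC2, a subunit of the clamp loader, had 6.52 in RT4P-BSE2, 7.65 in blebbishields, 7.71 in spheres, 7.27 in RT4v6, 7.13 in PBSHMS and 7.45 in RT4P, or 1.91-fold lower by its main probe. Its other probe differed by 0.02 on the log2 scale, so the RFC2 difference rests on 1 probe. RFC4, another subunit, was 1.38-fold lower with its other probe at -0.572. DSCC1, of an alternative loader that serves sister chromatid cohesion, was 1.26-fold lower, and RFC3 and RFC5 differed by -0.22 and -0.10. CLSPN, the mediator of the replication checkpoint, was detected in spheres and RT4v6 only, at 5.17 and 5.25, and could not be compared here. Its undetected readings were 4.33 in blebbishields, 4.85 in RT4P-BSE2, 4.72 in PBSHMS and 4.66 in RT4P.

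No gene of lagging strand maturation or of nucleotide supply passed 1.5-fold. FEN1, the flap nuclease, was 1.16-fold lower and LIG1, the ligase that seals fragments, 1.09-fold lower. RPA2, which coats single strands, had 9.94 in RT4P-BSE2, 10.03 in blebbishields, 10.22 in spheres, 10.08 in RT4v6, 9.91 in PBSHMS and 9.86 in RT4P, or 1.06-fold higher in RT4P-BSE2. RRM1 and RRM2, the 2 subunits of ribonucleotide reductase, lay at 1.01-fold and 1.00-fold of RT4P. RRM2 had 7.36 in RT4P-BSE2, 7.13 in blebbishields, 7.66 in spheres, 7.70 in RT4v6, 7.67 in PBSHMS and 7.36 in RT4P, lowest in blebbishields. TYMS, thymidylate synthase, had 10.02 in RT4P-BSE2 and 10.07 in RT4P, and TK1, thymidine kinase, 9.13 in RT4P-BSE2 and 9.19 in RT4P. UNG, which removes uracil from DNA, had 10.38 in RT4P-BSE2, 10.38 in blebbishields, 10.75 in spheres, 10.77 in RT4v6, 10.28 in PBSHMS and 10.85 in RT4P. It was 1.39-fold lower in RT4P-BSE2 than in RT4P, and its 2 other probes differed by -0.733 and -0.747. The median of the 5 nucleotide and uracil removal genes was -0.057.

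In the chromatin group, CDCA7, an activator needed for chromatin remodeling by HELLS, had 9.59 in RT4P-BSE2, 10.01 in blebbishields, 9.83 in spheres, 9.68 in RT4v6, 10.17 in PBSHMS and 10.57 in RT4P. It was 1.97-fold lower in RT4P-BSE2 than in RT4P, the largest difference of any member in this comparison, and RT4P stood above all 5 other arrays. UHRF1, which guides maintenance DNA methylation, was 1.35-fold lower by its main probe, with the other, dim probe at 0.471. SLBP, which binds histone mRNA, was 1.29-fold lower. CHAF1A and CHAF1B, subunits of the histone chaperone CAF-1, were 1.18-fold and 1.16-fold lower.

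**Figure D1:**
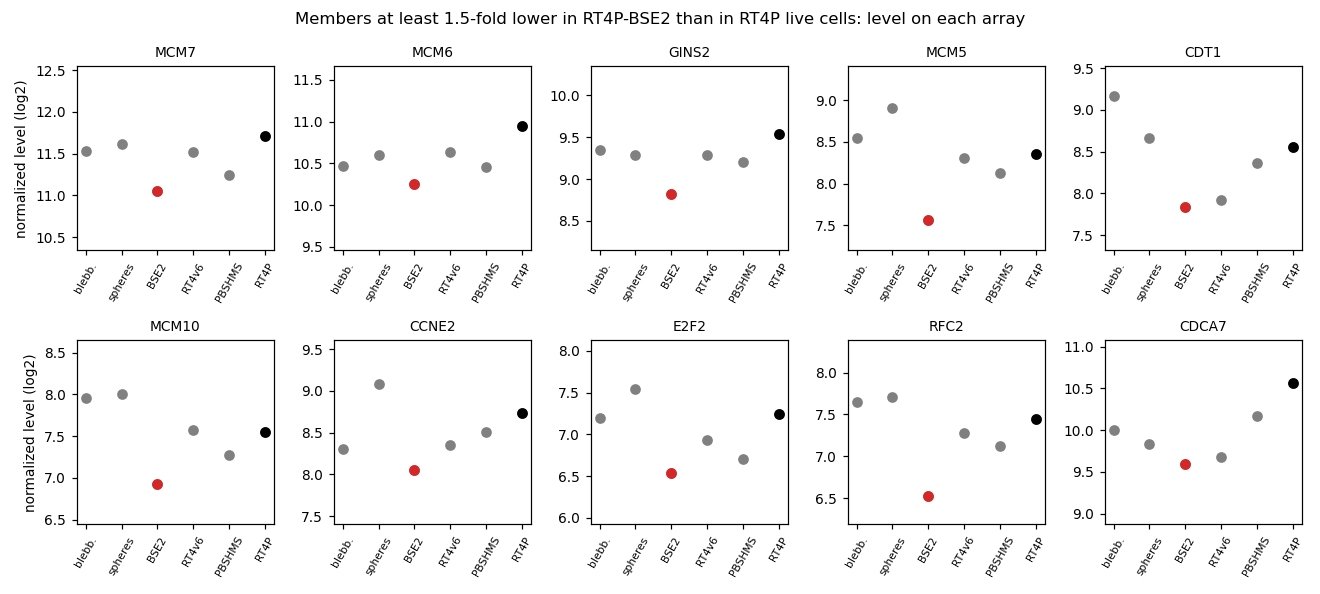
Log2 level on each array (y axis) of the 10 members at least 1.5-fold lower in RT4P-BSE2 than in RT4P live cells, 1 panel per gene, RT4P-BSE2 in red and RT4P in black. In every panel the RT4P-BSE2 point is the lowest of the 6 in the quantile normalized values shown, as for MCM5 with 7.57 in RT4P-BSE2 and 8.36 in RT4P. The genes were picked for a low value on the RT4P-BSE2 array, which favors this rank.

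RT4P-BSE2 was also set beside arrays other than RT4P. Ranks over the 6 arrays depend on the scaling of the dimmer blebbishield array. After quantile normalization, over the 40 members detected on all 6 arrays, RT4P-BSE2 was lowest for 21 (52.5%) and highest for 0. Of all genes detected on all arrays, 13.9% had their lowest value in RT4P-BSE2. Among the 4 live arrays it was lowest for 22 (55%), against 24.3% of all genes, and RT4P was highest for 22 (55%), against 22.6%. Set against RT4v6 instead of RT4P, a comparison added after the data were seen, the member median in RT4P-BSE2 was -0.243, with all genes at -0.035. There 35 of 43 members were below 0, against 53.4% of genes, and 4 were at least 1.5-fold lower and 0 higher, against 5.56% lower and 7.76% higher. None was 2-fold apart, against 0.69% of genes lower and 3.02% higher. The count of 4 fell to 1 without background correction and to 2 with the authors' processed values. The 4 at 1.5-fold were RFC2, MCM5, MCM2 and MCM10. Against PBSHMS, also added then, the median was -0.130, and 27 of 41 members were below 0, against 49% of genes. Across settings that median ran from -0.134 to -0.044. With no normalization between arrays 23 members were below 0 and 18 above. TYMS and RFC2 were at least 1.5-fold lower there and 0 members higher, against 7.53% of genes lower and 7.1% higher. The other RFC2 probe pointed the opposite way, at 0.117. The count of 2 was 1 under 6 of the 9 alternatives. The members' share was no larger than that of all genes. None was 2-fold apart, against 1.95% of genes lower and 3.01% higher.

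Members with and without an E2F motif were both lower in RT4P-BSE2 than in RT4P. The 13 measured members whose promoter held either motif had a median of -0.434, and 5 of them were at least 1.5-fold lower. The 23 with a promoter but no motif had a median of -0.226, and 3 were at least 1.5-fold lower. Set against RT4v6, the RT4P-BSE2 medians were -0.253 with a motif and -0.249 without, and against PBSHMS -0.19 and -0.13. Other arrays also had the lower median in motif members when set against RT4P. These medians, with and without a motif, were -0.186 and -0.009 in RT4v6 and 0.009 and 0.174 in spheres. They were 0.046 and 0.12 in blebbishields and -0.227 and -0.189 in PBSHMS. The difference between the 2 groups was not tested.

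Blebbishields lay above RT4P for some roles and below it for others in the quantile normalized values. By main probe, all 6 clamp and loader genes and all 3 Okazaki fragment and single strand genes lay above RT4P. So did 4 of 7 polymerase and primase genes and 3 of 5 nucleotide genes, and 44% of all genes. Second probes of the clamp, loader and Okazaki genes were at -0.263 for PCNA and 0.008 for RFC4. Those of RFC2, RFC3 and FEN1 were at 0.18, 0.21 and 0.672. Of 9 helicase genes, 6 lay below 0 and 2 above, with MCM5 above, and 1 was a bound of 0. Of 43 members measured, 17 were below 0, against 48.2% of all genes, and the median was 0.120 with all genes at 0.000. TYMS was at least 2-fold higher, and 0 members were 2-fold lower, against 7.09% of 13852 genes higher and 4.77% lower. At 1.5-fold, 8 members were higher (TYMS, POLD1, CHAF1B, POLE, LIG1, TK1, FEN1 and CDT1) and UHRF1 was lower, against 15.5% of genes higher and 13.9% lower. The lower calls were 1 of 43 members, a smaller share than that of all genes, and the higher calls 8 of 43. These directions and calls depend on the scaling of the dimmer blebbishield array. With arrays shifted to equal medians, or with no normalization between arrays, the member median was -0.489 or -0.625, while that of all genes was -0.563 or -0.699. With equal medians 7 members were above 0, 0 were 1.5-fold or 2-fold higher, 18 were 1.5-fold lower and 5 were 2-fold lower. With no normalization 2 were above 0, 0 were 1.5-fold or 2-fold higher, 22 were 1.5-fold lower and 7 were 2-fold lower. The TYMS call was thus lost under both. Relative to all genes, the member median was 0.120 higher in the main setting and 0.074 higher in both others.

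TYMS, which makes thymidylate and is the target of fluoropyrimidine drugs, had 11.22 in blebbishields, 10.68 in spheres, 10.02 in RT4P-BSE2, 10.18 in RT4v6, 10.82 in PBSHMS and 10.07 in RT4P. It was 2.21-fold higher in blebbishields than in RT4P, and blebbishields, PBSHMS and spheres stood apart above the other 3 arrays. Its difference was above 0 but under 1.5-fold under both other scalings. POLD1, the catalytic subunit of the lagging strand polymerase, had 8.50 in blebbishields, 7.66 in spheres, 7.37 in RT4P-BSE2, 7.34 in RT4v6, 7.42 in PBSHMS and 7.64 in RT4P, or 1.81-fold higher in blebbishields, the highest array by a wide margin. POLE had 8.54 in blebbishields, 7.77 in spheres, 7.68 in RT4P-BSE2, 8.01 in RT4v6, 7.87 in PBSHMS and 7.75 in RT4P, or 1.73-fold higher. LIG1 had 8.96 in blebbishields, 8.57 in spheres, 8.08 in RT4P-BSE2, 8.28 in RT4v6, 8.18 in PBSHMS and 8.21 in RT4P, or 1.68-fold higher. Blebbishields were the highest array for each of these 4 genes in the quantile normalized values. With no normalization between arrays all 43 measured members, these 4 included, were higher in spheres than in blebbishields, and TYMS and POLD1 were the 2 members still above RT4P. TK1 had 9.90 in blebbishields, 9.39 in spheres, 9.13 in RT4P-BSE2, 9.54 in RT4v6, 9.0 in PBSHMS and 9.19 in RT4P, or 1.63-fold higher, and FEN1 had 11.59 in blebbishields, 11.32 in spheres, 10.74 in RT4P-BSE2, 10.93 in RT4v6, 10.88 in PBSHMS and 10.95 in RT4P, or 1.56-fold higher, with its other probe at 0.672. CHAF1B had 8.09 in blebbishields, 7.93 in spheres, 7.07 in RT4P-BSE2, 7.37 in RT4v6, 6.60 in PBSHMS and 7.28 in RT4P, or 1.75-fold higher. CDT1, whose 6 levels are given above, was 1.53-fold higher and highest in blebbishields. With no normalization between arrays these 4, POLE and LIG1 all turned below 0, and CDT1 did so with equal medians too.

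UHRF1 was the member furthest below RT4P in blebbishields. It had 9.28 in blebbishields, 9.92 in spheres, 9.73 in RT4P-BSE2, 9.76 in RT4v6, 9.93 in PBSHMS and 10.16 in RT4P, a level 1.84-fold lower than in RT4P. Its other probe, whose lowest detection p on any array was 0.00519, differed by -0.115, and the mean over both probes was short of 1.5-fold. CDCA7 was 1.48-fold lower, MCM6 1.39-fold lower and UNG 1.39-fold lower. Helicase genes had a median of -0.153 and none passed 1.5-fold. Over the 40 members detected on all arrays, blebbishields were highest for 14 (35%) after quantile normalization, against 23.8% of all genes. They were lowest for 2 (5%), against 27.2%.

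In spheres, 4 h after the blebbishield stage, no member reached 2-fold against RT4P, where 3% of 14680 genes were 2-fold higher and 3.31% lower. Of 44 members, 13 were below 0, against 47.9% of genes, and the median was 0.176. Across settings that median ran from 0.085 to 0.273. At 1.5-fold, PCNA, CHAF1B, GINS3 and TYMS were higher and CDCA7 lower, against 9.9% of genes higher and 10.3% lower. PCNA was 1.72-fold higher in spheres than in RT4P by its main probe, its other probe was at 0.344, and spheres had its highest level of the 6 arrays. In blebbishields the 2 PCNA probes pointed opposite ways, at 0.499 and -0.263. GINS3, a helicase subunit, had 8.38 in spheres, 8.07 in blebbishields, 7.54 in RT4P-BSE2, 7.40 in RT4v6, 7.16 in PBSHMS and 7.76 in RT4P, or 1.53-fold higher. CHAF1B was 1.57-fold higher and TYMS 1.52-fold higher. CDCA7 was 1.67-fold lower. PRIM1, the primase that lays the RNA primer, had 9.0 in spheres, 8.52 in blebbishields, 8.33 in RT4P-BSE2, 8.28 in RT4v6, 8.33 in PBSHMS and 8.55 in RT4P. It was 1.37-fold higher in spheres than in RT4P, with its other probe at 0.66, and highest of the 6 arrays. Spheres were highest for 14 of 40 members (35%), against 19.2% of all genes, and lowest for 0, against 16.8%.

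Spheres against blebbishields compares the 2 treated arrays directly. The member median was 0.000, and 19 of 43 members were below 0, against 42.2% of genes. No member differed 2-fold, against 3.01% of 14318 genes higher and 5.99% lower. CCNE2 and UHRF1 were at least 1.5-fold higher in spheres, at 1.71-fold and 1.55-fold, against 10.4% of genes. CCNE2 stood at 9.09 in spheres, its highest level of the 6 arrays, and at 8.31 in blebbishields. POLD1 and POLE were 1.78-fold and 1.71-fold lower in spheres, against 14% of genes, and stood near the RT4P level there. TYMS was 1.45-fold lower in spheres than in blebbishields, TK1 1.42-fold and CDT1 1.42-fold. RRM2 was 1.45-fold higher. The lower differences turned above 0 under the other scalings, where 1 member stayed below 0 with equal medians (POLD1) and 0 with no normalization. In those 2 scalings the member median was 0.705 with equal medians and 0.869 with no normalization, when all genes lay at 0.595 and 0.759.

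**Figure D2:**
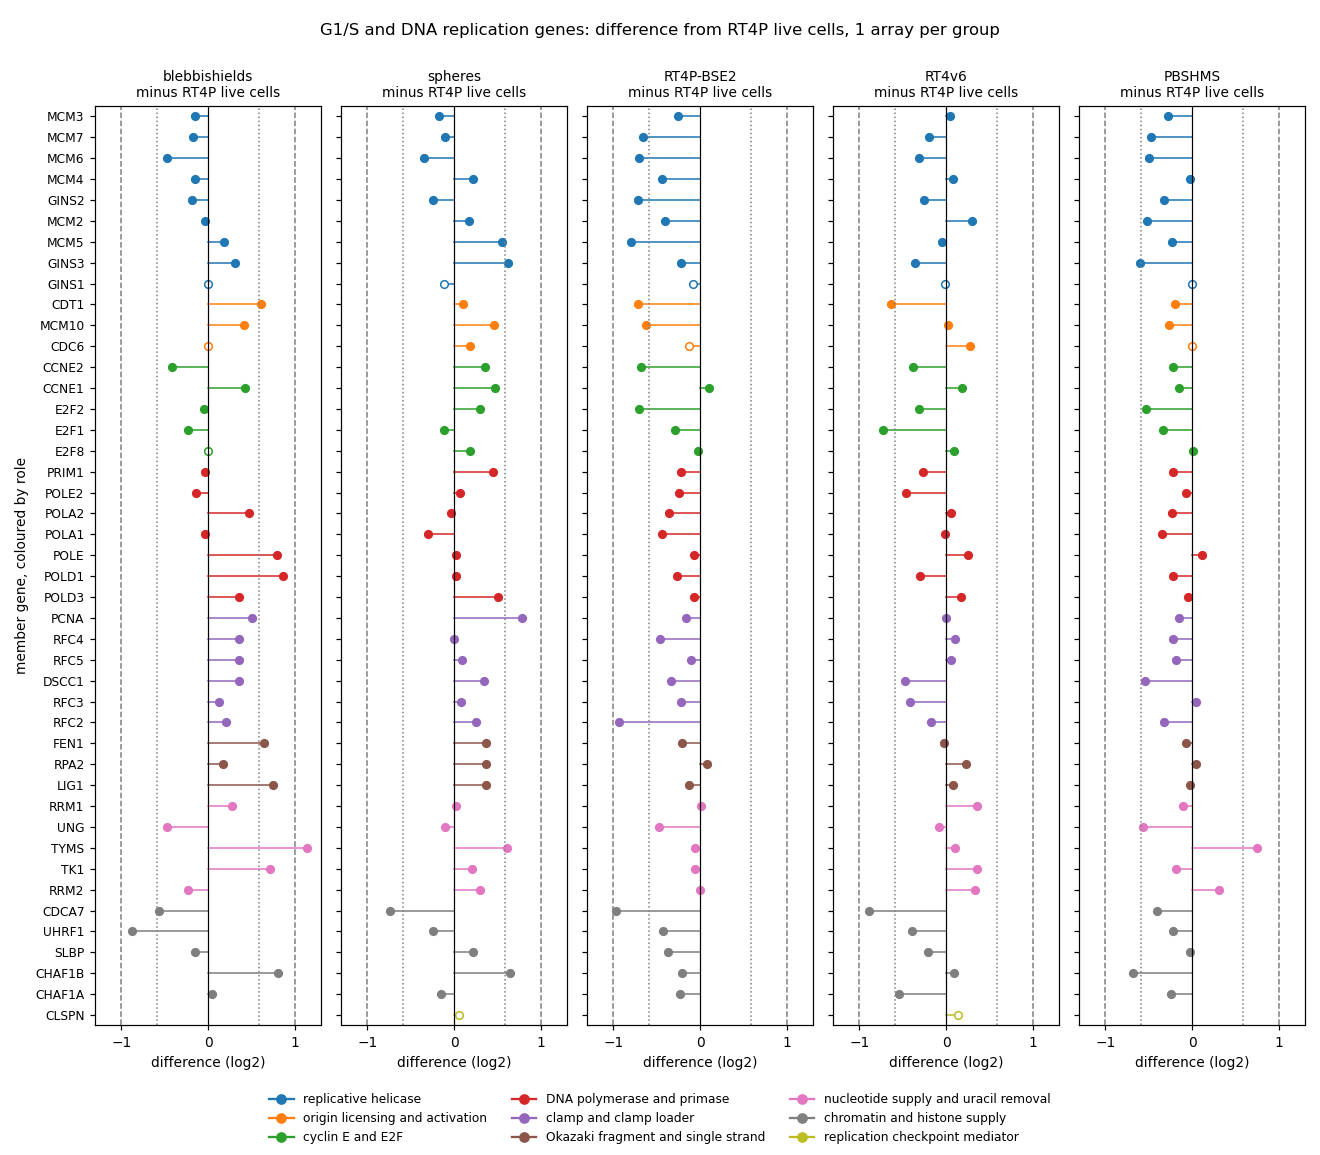
Log2 difference of each member from RT4P live cells (x axis), 1 panel per comparison and 1 line per gene (y axis, coloured by role), with open circles for bounds, dotted lines at 1.5-fold and dashed lines at 2-fold. In RT4P-BSE2 against RT4P 39 of 43 members lie below 0. In blebbishields against RT4P, where TYMS at 1.14 passes 2-fold, 17 of 43 do in the quantile normalized values shown, and the median falls below 0 under both other scalings.

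RT4v6 cells, passaged in mice, had a member median near 0. The median over 44 members was -0.011, with all genes at 0.024, and 24 were below 0, against 47.2% of genes. The sign of that median changed between settings, from -0.061 to 0.025. None was 2-fold apart, against 1.15% of 14194 genes higher and 2.41% lower. At 1.5-fold 0 members were higher and 3 were lower, against 6.39% of genes higher and 7.9% lower. CDCA7 was 1.85-fold lower and CDT1 1.56-fold lower, both levels given above. E2F1 had 5.32 in RT4v6, 5.80 in blebbishields, 5.92 in spheres, 5.75 in RT4P-BSE2, 5.70 in PBSHMS and 6.04 in RT4P, or 1.65-fold lower, with RT4v6 lowest of the 6. RRM1 had 11.31 in RT4v6, 11.23 in blebbishields, 10.98 in spheres, 10.96 in RT4P-BSE2, 10.85 in PBSHMS and 10.96 in RT4P, or 1.28-fold higher in RT4v6, and TK1 and RRM2 were 1.28-fold and 1.26-fold higher, all under 1.5-fold. Nucleotide supply had the highest role median, 0.336, and the chromatin group the lowest, -0.398.

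PBSHMS fusion cells also lay below RT4P across most members, by small steps. The median over 43 members was -0.217, with all genes at 0.000, and 35 were below 0, against 47.8% of genes. That median stayed below 0 in every setting tried, from -0.338 to -0.164. No member differed 2-fold, against 1.8% of 13767 genes higher and 2.04% lower. At 1.5-fold TYMS was higher, and CHAF1B and GINS3 were lower, against 7.34% of genes higher and 6.65% lower. TYMS was 1.67-fold higher in PBSHMS than in RT4P. CHAF1B was 1.60-fold lower and GINS3 1.52-fold lower, with PBSHMS lowest of the 6 arrays for both. UNG was 1.49-fold lower, just inside 1.5-fold, with its other probes at -0.768 and -0.602. MCM2, MCM6 and MCM7 were 1.44-fold, 1.41-fold and 1.39-fold lower, and MCM4 stood at 9.99 in PBSHMS and 10.01 in RT4P. After quantile normalization, PBSHMS was lowest for 10 of 40 members (25%), against 15.6% of all genes. The comparisons against RT4P share that array, so an RT4P value that is high or low enters each of them.

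Genes with several probes gave a view of measurement spread that is not replicate error. Over 2186 genes with at least 2 detected probes, the SD of a probe's log2 difference, from the gap between a gene's 2 brightest probes, was 0.209 in RT4P-BSE2 against RT4P. It was 0.393 for blebbishields, 0.242 for spheres, 0.231 for RT4v6 and 0.221 for PBSHMS, each against RT4P, and 0.328 for spheres against blebbishields. Of 13 members with 2 probes detected on every array, both pointed the same way against RT4P for 12 in RT4P-BSE2, 10 in blebbishields and 11 in spheres. They did for 7 in RT4v6 and 11 in PBSHMS. In spheres against blebbishields they did for 7, in RT4P-BSE2 against RT4v6 for 10, and in RT4P-BSE2 against PBSHMS for 8.

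Other genes of replication and of mitosis were set beside the members. Of 51 further replication genes, 41 had a detected probe under the listed name. In RT4P-BSE2 against RT4P their median was -0.133, and 2 of 41 were at least 1.5-fold lower and 0 higher. Of all genes, 2.67% were lower and 3.99% higher. DTL, which targets CDT1 for destruction, stood at 6.24 in RT4P-BSE2 and 7.16 in RT4P. TIPIN, a fork protection factor, stood at 7.22 in RT4P-BSE2 and 7.88 in RT4P. In blebbishields the median of the 41 was 0.099 under quantile normalization, with 8 higher and 1 lower at 1.5-fold. Of all genes, 15.5% were higher, a share near that of the 41, and 13.9% lower. POLE4, an accessory subunit of the leading strand polymerase, had 8.49 in blebbishields, 8.37 in spheres, 7.22 in RT4P-BSE2 and 7.38 in RT4P, and was not detected in RT4v6 or PBSHMS. It was at least 4.82-fold lower in RT4v6 and at least 4.37-fold lower in PBSHMS than in RT4P. In RT4v6 the median of the 41 was 0.053, with 5 higher and 4 lower at 1.5-fold, against 6.39% and 7.9% of all genes. In PBSHMS it was -0.158, with 0 higher and 4 lower, against 7.34% and 6.65%. BRCA1, a repair gene that follows the S phase program, was 1.89-fold higher in RT4v6 than in RT4P. SLFN11, which blocks stressed forks, was 2.26-fold lower in RT4v6.

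In the quantile normalized values, genes of G2 and mitosis went another way from the members in RT4P-BSE2 and in spheres. Of 27 measured, 26 lay above 0 in RT4P-BSE2 against RT4P, with a median of 0.287, while 46.8% of all genes lay above 0. BUB1B, BUB1, TPX2 and UBE2C were at least 1.5-fold higher, against 3.99% of genes. The members' median there was -0.253, so the 2 lists had opposite signs on that array. In blebbishields 14 of the 27 were at least 1.5-fold lower than in RT4P and 5 at least 2-fold lower, with a median of -0.609. Of all genes, 13.9% and 4.77% were lower at these cuts. The G2/M list was not put through the other scalings. There the members' median in blebbishields was itself below 0, at -0.489 with equal medians and -0.625 with no normalization. In spheres 21 of the 27 were at least 1.5-fold lower and 14 at least 2-fold lower, against 10.3% and 3.31% of all genes. Their median was -1.042, while the members' median was 0.176. KIF20A, a motor of cytokinesis, had 6.42 in blebbishields, 5.75 in spheres and 8.96 in RT4P. CCNB1, cyclin B1, had 7.36 in blebbishields, 7.17 in spheres and 8.78 in RT4P. TOP2A, the further replication gene furthest below RT4P in spheres (2.36-fold lower), is also a well known gene of the G2/M program. In RT4v6 and PBSHMS the G2/M medians were 0.047 and 0.022.

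**Figure D3:**
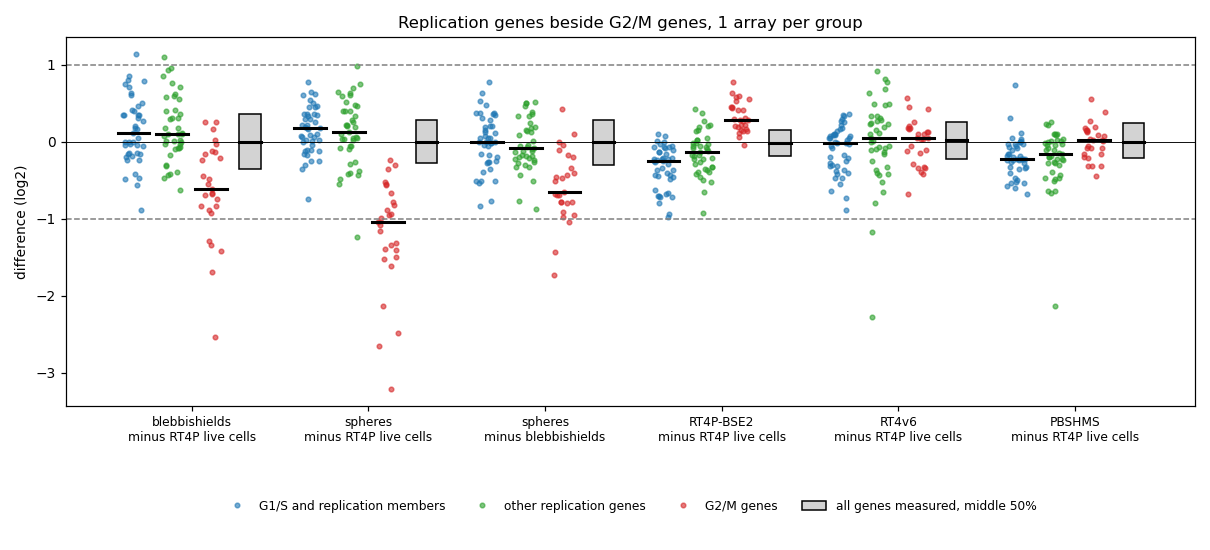
Log2 difference of single genes (y axis) in each comparison for the members (blue), other replication genes (green) and G2/M genes (red), with black bars at the medians and a grey box for the middle of all genes. G2/M genes have a median of -1.042 in spheres, where the members have 0.176, and 0.287 in RT4P-BSE2, where the members have -0.253.

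Of 24 genes of the retinoblastoma pathway and the cyclin-dependent kinase inhibitors, 22 had a detected probe. CDKN1A, the p53 target that inhibits cyclin E kinase, had 13.40 in blebbishields, 12.38 in spheres, 11.89 in RT4P-BSE2, 11.99 in RT4v6, 12.52 in PBSHMS and 11.99 in RT4P. It was thus 2.65-fold higher in blebbishields than in RT4P on the array where TYMS, POLD1 and LIG1 were also highest after quantile normalization. RBL1, a relative of the retinoblastoma protein, was 1.91-fold higher in blebbishields, and RB1, named here for its role, stood at 6.48 in blebbishields, 6.92 in RT4P-BSE2 and 6.68 in RT4P. In RT4P-BSE2 the list had a median of -0.157 over 20 measured genes. CDKN2C, an inhibitor of cyclin D kinases, was 1.87-fold lower there than in RT4P, and lower on every other array too. It was 1.90-fold lower in PBSHMS, and at least 3.12-fold lower in blebbishields, 4.3-fold in spheres and 3.98-fold in RT4v6. CCND2, cyclin D2, had 7.26 in RT4v6 and 11.77 in RT4P, a level 22.8-fold lower in RT4v6. These values are quantile normalized, and this list was not put through the other scalings. In blebbishields against RT4P the median of all genes was -0.563 with equal medians and -0.699 with no normalization. The part of these genes in the members' levels was not tested.

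**Figure D4:**
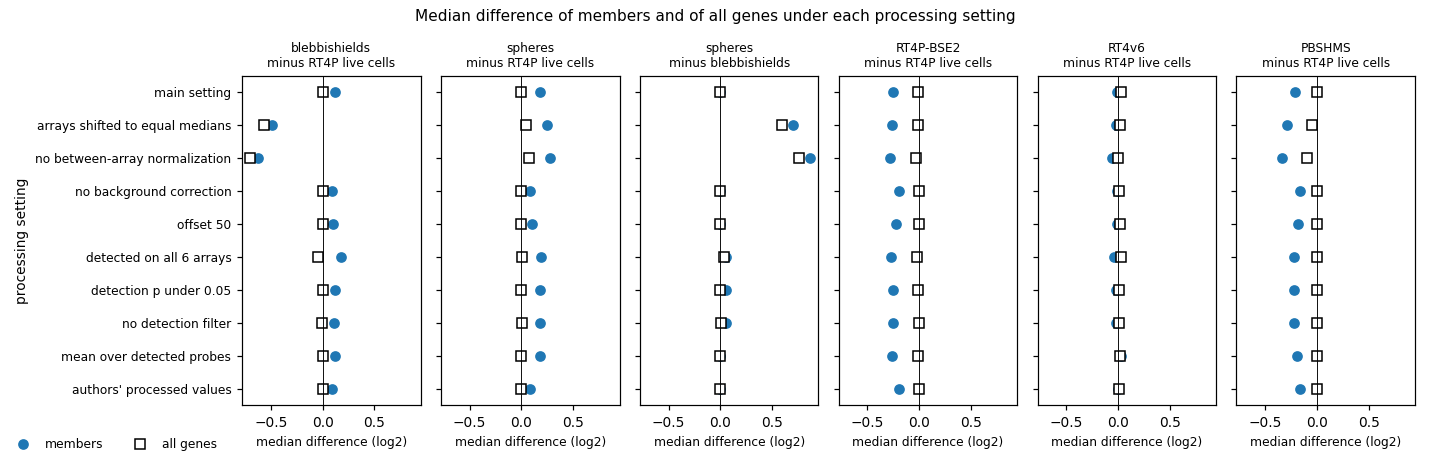
Median log2 difference (x axis) of the members (dots) and of all genes (open squares) in each comparison, under the main setting and 9 alternatives (y axis). The members of RT4P-BSE2 lie between -0.282 and -0.198 in every setting, while for blebbishields both medians fall together when the arrays are not quantile normalized, to -0.625 for the members and -0.699 for all genes.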

How the data were processed

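RNA of 6 samples was measured on 1 array each. The authors deposited a non-normalized signal intensity per probe, a detection p-value per probe and array (per the file headers), and processed intensity values with a median of 104.4 on each array. They used GenomeStudio, per the submitters' processing notes, in a version not given here. From the non-normalized intensity, neqc in limma 3.58.1 (R 4.3.3) corrected the background with negative controls inferred from detection p, and after an offset of 16 the values were quantile normalized over the 6 arrays and turned to log2, a procedure tested on simulated data. A gene was its detected probe (detection p under 0.01 on at least 1 array) of highest mean. It entered a comparison if detected on either array, an undetected side was raised to the lowest detected value of that array, and the difference is then a bound. Differences are the first-named array minus the second. Genes named with all 6 levels were those at 2-fold, the 3 furthest each way per comparison, the representative with the highest mean in each role, and, chosen after their values were seen, other members past 1.5-fold. From other lists, up to 4 genes of largest difference per comparison were named. The members and lists were chosen with earlier results of these data known. No test was run, since the number of arrays, at 1 per group, sets the precision.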

Additional observations from a re-analysis of the deposited data

How the results depend on the processing

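Under 9 alternatives to each of 8 comparisons (2 of the comparisons added after the data were seen), the members' median moved by less than the probe spread in 68 cases, within which the RT4v6 median, near 0, changed sign. The 4 exceptions were blebbishields against RT4P, at -0.489 with arrays shifted to equal medians and -0.625 with no normalization between arrays, and spheres against blebbishields, at 0.705 and 0.869. The probe spread is that of a single probe and is larger than several of these medians, so a median could come near 0 without passing it. In RT4P-BSE2 against PBSHMS the median went from -0.130 to -0.044 with no normalization, within a spread of 0.213. In RT4P-BSE2 against RT4P the median ran from -0.282 to -0.198. Counts at 2-fold with equal medians and with no normalization were 5 and 7 for blebbishields against RT4P (all lower, the TYMS call being lost), 10 and 15 for spheres against blebbishields (all higher), and 1 and 1 for RT4P-BSE2 (lower). Counts at 1.5-fold, chosen after the data were seen, moved by over 1.5 times in 33 cases and did not in 111. With equal medians and with no normalization, 0 and 0 members were higher and 18 and 22 lower in blebbishields than in RT4P, 26 and 30 were higher and 0 and 0 lower in spheres than in blebbishields, and 7 and 8 were lower in PBSHMS. Without background correction and with the authors' processed values, 5 and 5 were lower in RT4P-BSE2 than in RT4P, 1 and 2 lower than in RT4v6 and 1 and 1 lower than in PBSHMS, 1 and 1 lower in RT4v6, 0 and 0 lower in PBSHMS, and 1 and 1 higher in spheres. With an offset of 50, 1 was lower in RT4v6, 0 lower in PBSHMS and 2 higher in spheres. With the mean over probes, 0 were lower in blebbishields than in RT4P and 1 was higher in spheres than in blebbishields, a count that was also 1 without background correction. With no detection filter 1 was higher in RT4v6. In blebbishields against RT4P members above 0 numbered 23 in the main setting, 7 with equal medians and 2 with no normalization, and in spheres against blebbishields members below 0 numbered 19, 1 and 0. Among members past 1.5-fold that are named by rule, those that changed sign in blebbishields against RT4P with no normalization were CDT1 (-0.233, and -0.097 with equal medians), CHAF1B (-0.029), FEN1 (-0.094), POLE (-0.060) and TK1 (-0.109). In spheres against blebbishields they were POLD1 (0.109) and POLE (0.177, and 0.014 with equal medians). The cause was not tested, beyond the shift of all genes given above.

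No paired analysis was possible because each group has 1 array and the result comes from no test. With 1 array per group, differences between arrays cannot be told apart from differences between groups. Low-signal members (GINS1, CDC6, E2F8 and CLSPN) give bounds only on some arrays.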
